A study of Homo sapiens with 3 samples.

Results

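The regions described here are the m6A regions of the major histocompatibility complex (MHC), the gene-dense block on the short arm of chromosome 6 that holds the HLA genes. They were taken from the study's single deposited list of 41836 m6A regions in nuclear RNA of MDA-MB-231 cells, a long-established line from a human breast cancer. A region was a member if its midpoint lay in the MHC interval of hg19, from 28.5 to 33.4 Mb of chromosome 6, on either strand, and 381 regions met that rule. They were 0.911% of the list and 15.5% of the 2452 regions of chromosome 6. The study compared RNA captured with an antibody against N6-methyladenosine (m6A, 2 libraries) with RNA captured by rabbit IgG (1 library), all from untreated nuclei of the same line. The deposited list has 0 columns for a single library and a score of 1 for every region, and how the libraries were combined is not given in its file. The values of a region are therefore its position, width and strand, without replicate error, and neither the level of any RNA nor cell type markers could be read from it.

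The MHC has long been divided into class I, class III and class II parts. Classical class I molecules, such as HLA-B and HLA-C, present peptides from inside the cell to CD8+ T cells, and the TAP transporter, tapasin and the immunoproteasome supply and load those peptides. Class II molecules present peptides taken up from outside, mainly on professional antigen-presenting cells. Between and around these genes lie complement, cytokine and heat shock genes and many genes that every cell uses for splicing, translation, chromatin and the cytoskeleton. In RNA, m6A is written on adenosines of a short DRACH motif while transcripts are still in the nucleus, and it is known for effects on splicing, export, decay and microRNA processing.

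Every gene name given to a region here is a placement from general knowledge of hg19, not from an annotation of that build, since the annotation used here is in GRCh38. A map of 115 MHC genes was written from that knowledge, rounded to 0.1 kb. Of these, 89 belong to lists by function, and the other 26 were added after the regions had been seen. The map was compared with GENCODE release 29 and RefSeq without a common coordinate, and all 115 strands matched. As first written, 2756 of 2850 pairs of genes with a region (96.7%) had distances between their regions that the distances of the genes allow within 500 nt, and 1 gene had regions over a stretch longer than the gene. The limits of 7 genes were then corrected, those of TNXB and ABCF1 because they failed this comparison, after which all 2850 pairs passed. That final count was reached by editing and is no independent support for the map. The corrections took 2 regions each from ABCF1 (11 before, 9 after) and TNXB (6 before, 4 after), and the counts of the other 5 genes did not change. Whether a region lies in an exon, an intron or a UTR, and whether it holds a DRACH motif, was not analysed here.

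No sequence of hg19 was read, so none of a region is shown. MicroRNA precursors inside MHC genes can be shown, because hairpins and genes share GRCh38 in RefSeq and GENCODE, and the processing of primary microRNAs is one known role of nuclear m6A. The MHC held 10 hairpins in the RefSeq table (GRCh38.p14), and 8 of them lay on the strand of a mapped gene with at least 1 m6A region. The letters GGAC, a core of the DRACH motif, searched on the hairpin's own strand, were in 7 of these 8, in 8 of all 10 MHC hairpins and in 427 of all 1562 hairpins of the table (27.3%). The MHC hairpins are few, hairpins of like length and base composition were not compared, and no test was made. The last letter of DRACH was not part of the search, so a GGAC need not be a full motif. In MIR219A1, which lies in no mapped gene with a region, the GGAC is followed by G and is not one. The hairpins of ABCF1 (9 regions), WDR46 (6), HLA-B (4), NELFE (2) and PFDN6 (2) are shown, with GGAC in capitals. Those of ABCF1 and NELFE are known as mirtrons, short introns that fold into a precursor once spliced. The hairpins shown for HLA-B and PFDN6 also begin with gu and end with ag, as those of ABCF1 and NELFE do. Whether they or the hairpin in WDR46 are mirtrons was not analysed. The processing role named above need not apply to any hairpin shown. The hairpin in HLA-B has no GGAC, and the hairpin in PFDN6 has 2. Whether any deposited region covers a hairpin was not tested.
MIR877 in ABCF1: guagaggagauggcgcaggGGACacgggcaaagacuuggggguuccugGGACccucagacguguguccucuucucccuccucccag
MIR6873 in WDR46: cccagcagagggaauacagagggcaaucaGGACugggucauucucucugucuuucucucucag
MIR6891 in HLA-B: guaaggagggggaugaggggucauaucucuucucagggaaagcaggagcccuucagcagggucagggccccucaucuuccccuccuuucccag
MIR1236 in NELFE: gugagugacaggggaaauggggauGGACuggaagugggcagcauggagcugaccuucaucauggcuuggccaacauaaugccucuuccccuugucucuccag
MIR6834 in PFDN6: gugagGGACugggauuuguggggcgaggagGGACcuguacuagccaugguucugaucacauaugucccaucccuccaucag

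The MHC was densely filled with m6A regions. Its 381 regions lay in 4.97 Mb, which is 76.7 regions per Mb (95% exact Poisson interval, 69.2 to 84.8, counting error only). Chromosomes were tiled with windows of the same length from their start, but chromosome 6 outward from the MHC limits, so that the MHC filled exactly 1 window. Of the other 607 windows, 0 held as many. Those windows had a median of 49 regions, quartiles of 23 and 93, and a highest count of 311. They include 28 windows without a region, and without these the median was 54. With a window starting at any region outside the MHC, the highest count was 342. On chromosome 6 alone the other 32 windows ran from 4 to 275 regions, and the window with 275 was the one directly centromeric of the MHC. These ranks describe the list and are not a test.

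**Figure D1:**
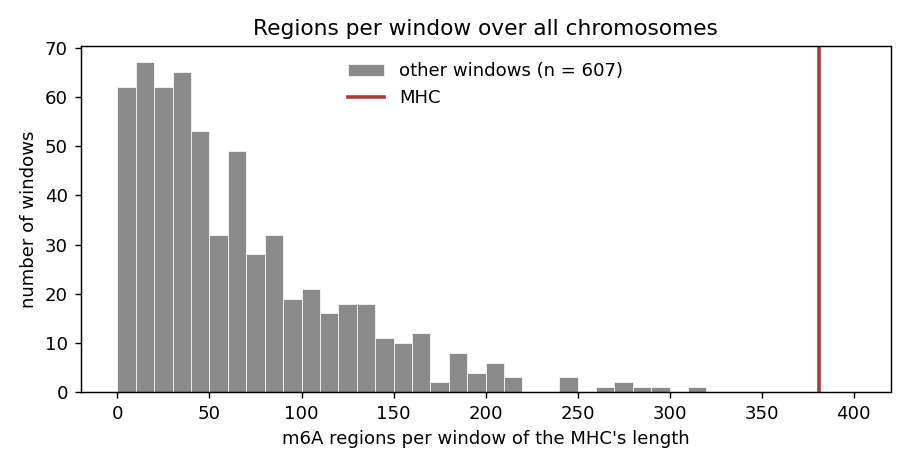
Number of m6A regions (horizontal axis) in windows of the MHC's length tiled over all chromosomes, as a histogram of windows (vertical axis). The MHC, marked by the red line at 381 regions, lies beyond the highest of the other 607 windows (311).

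Per gene, the MHC was close to the list as a whole. GENCODE places 180 protein-coding genes between GPX5 and ZBTB9, the outermost genes used for the MHC, so that there were 2.12 regions per protein-coding gene. The same ratio was 2.10 for the whole list over 19927 protein-coding genes, and 2.35 for chromosome 6. Per Mb of protein-coding gene the MHC stood higher, with 169 regions per Mb against 30.8 for the whole list, and these MHC genes add up to only 2.25 Mb. Per kb of exon the ratio was 0.610 in the MHC and 0.495 on chromosome 6. Regions in noncoding genes are counted in each of these ratios.

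The 3 parts differed in density. The class I part, telomeric of 31400 kb, held 180 regions (47.2%), the class III part up to 32200 kb held 133 (34.9%) and the class II part beyond it held 68 (17.8%). Per Mb, class III held 166 regions (95% Poisson interval, 139 to 197), class I 61.6 (52.9 to 71.3) and class II 54.5 (42.3 to 69.1). The interval of class III does not overlap the other 2, while those of class I and class II overlap each other. Per protein-coding gene the order was another one, with 2.61 regions in class I, 1.93 in class III and 1.62 in class II. The intervals take regions as independent, which neighbours on 1 transcript are not.

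**Figure D2:**
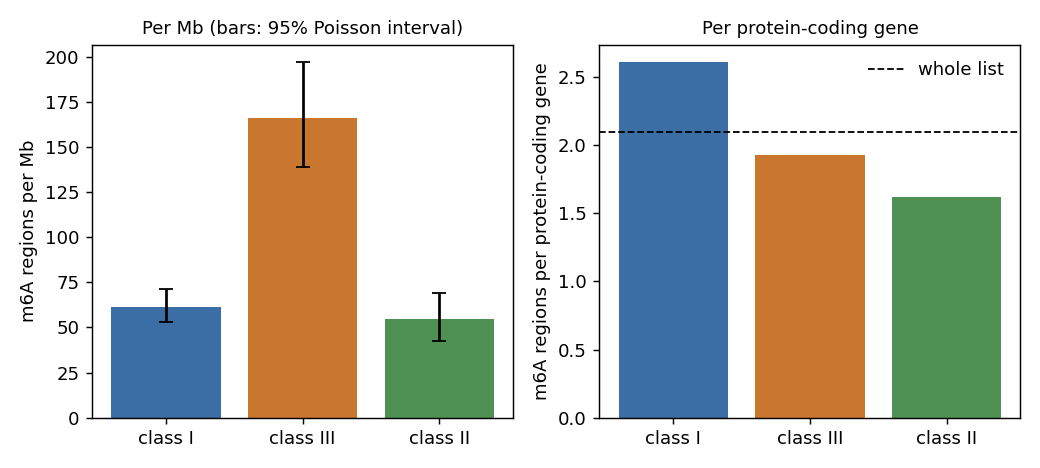
Left, m6A regions per Mb in each part of the MHC, with 95% exact Poisson intervals as error bars. Right, regions per protein-coding gene, with the ratio of the whole list (2.10) as a dashed line. Class III is highest per Mb (166) and class I is highest per gene (2.61).

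Within each part the regions gathered in a few stretches. Of 50 bins of 100 kb, 14 held none, the median bin held 3, and 7 bins with at least 20 regions held 203 of the 381 (53.3%). The fullest bin, from 30577797 to 30677796, held 38 regions, almost all in genes from PPP1R10 to MDC1. The next, from 31577797 to 31677796, held 36, most of them in genes from PRRC2A to ABHD16A. In contrast, 5 stretches over 200 kb without a region on either strand made up 35.2% of the MHC. The longest, from 28950031 to 29572353 (622 kb), lies telomeric of GABBR1, in a stretch known for olfactory receptor genes. Stretches from 32160510 to 32549332 (389 kb) and from 32549382 to 32800490 (251 kb), flank the only region in HLA-DRB1 and take in the HLA-DR and HLA-DQ genes. Another, from 32948618 to 33162364 (214 kb), starts just after BRD2 and takes in HLA-DOA, HLA-DPA1 and HLA-DPB1.

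**Figure D3:**
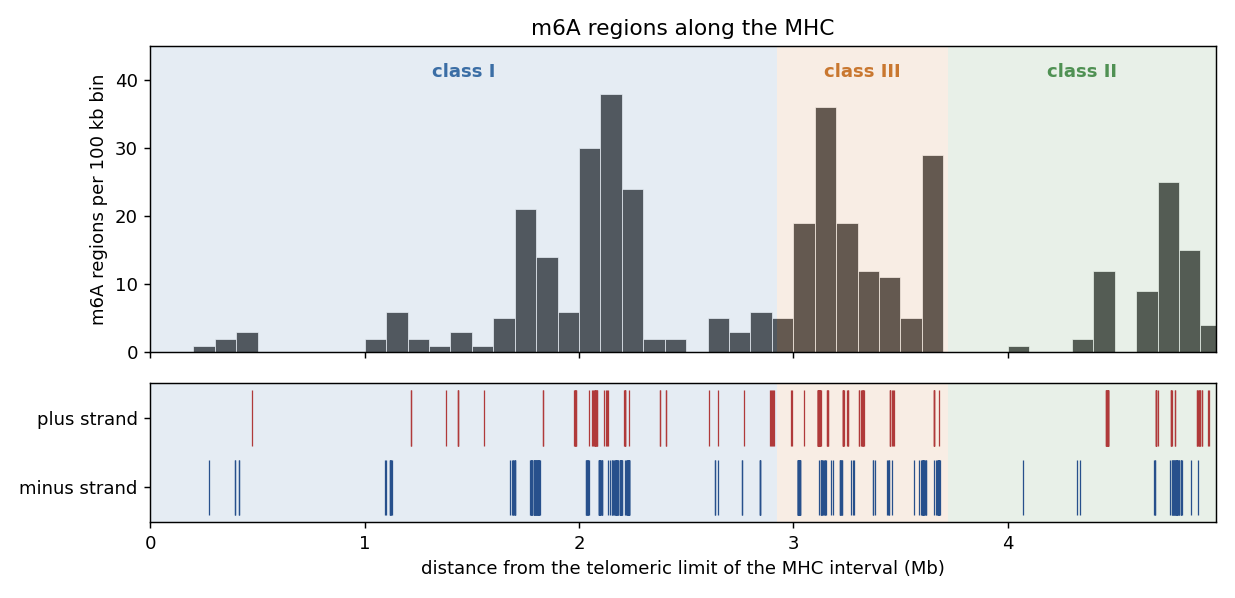
Top, m6A regions per 100 kb bin against the distance from the telomeric limit of the MHC (Mb), with the 3 parts shaded. Bottom, each region as a line on its strand. The fullest bin holds 38 regions, 14 of 50 bins are empty, and the class II part has long empty stretches around its HLA genes.

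The deposited strand was mostly minus. There were 241 minus-strand and 140 plus-strand regions, so that 63.3% were on minus (95% Wilson interval, 58.3 to 67.9%, counting error only). The share was 54.7% (52.6 to 56.8%) on the rest of chromosome 6 and 57.3% (56.8 to 57.8%) in the rest of the list. By part it was 72.2% (65.3 to 78.2%) in class I, 58.6% (50.2 to 66.7%) in class III and 48.5% (37.0 to 60.2%) in class II. Protein-coding genes on the minus strand made up 46.4%, 50.7% and 61.9% of those parts, an order opposite to that of the regions. Counted by cluster, the strands were even, with 35 clusters on each. Without the 29 regions of HCG18 the minus share was 60.2% (55.0 to 65.2%) in the MHC and 66.9% (59.0 to 73.9%) in class I. No test was made, since regions of 1 transcript share their strand.

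Joining same-strand neighbours up to 10 kb apart gave 70 clusters. Only 20 regions (5.25%, Wilson interval 3.42 to 7.97%) were alone, against 22.0% in the rest of the list, and 212 (55.6%, 50.6 to 60.6%) were in clusters of at least 10, against 26.2%. At a fixed joining distance a denser stretch tends to have fewer single regions and larger clusters. This contrast is therefore not separate from the density of the MHC, and stretches of like density were not compared. Of the 12 clusters of at least 10 regions, 9 were on the minus strand. The largest held 30 regions on the minus strand from 30248045 to 30293788, of which 29 fell in HCG18. A cluster of 29 on the same strand, from 30632991 to 30680414, ran through DHX16, PPP1R18, NRM and MDC1, and a cluster of 25, from 33237920 to 33290065, ran through VPS52, WDR46, RGL2, TAPBP and DAXX. A cluster here can therefore hold several genes. Neighbouring regions over 100 nt and up to 10 kb apart, on either strand, shared a strand in 300 of 328 pairs (91.5%, 87.9 to 94.0%). The share was 95.5% (95.2 to 95.7%) in the rest of the list. Nearer and overlapping pairs were left out. In the MHC the closest same-strand regions were 108 nt apart, so only opposite-strand pairs were left out there.

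By the corrected map, 355 of the 381 regions (93.2%) fell in a gene on its own strand, in 76 genes, and 9 more lay in a mapped gene of the opposite strand only. With the limits as first written it was 359 regions (94.2%). Since 26 genes were added because regions lie in them, this share is not evidence of its own. For the 89 genes listed by function, whether or not a region lies in them, 239 regions were on the strand of the gene and 8 on the opposite strand only, a same-strand share of 96.8% (Wilson interval, 93.7 to 98.4%). That share is no independent support for the map either. The lists were chosen with earlier results of these data known, and the corrected genes include listed ones such as ABCF1 and TNXB. Of the 76 genes, 43 held at least 3 regions and together 304 (79.8%), and 9 held at least 10 and together 137 (36.0%). Of the 89 listed genes, 50 held at least 1 region and the median was 1.

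**Figure D4:**
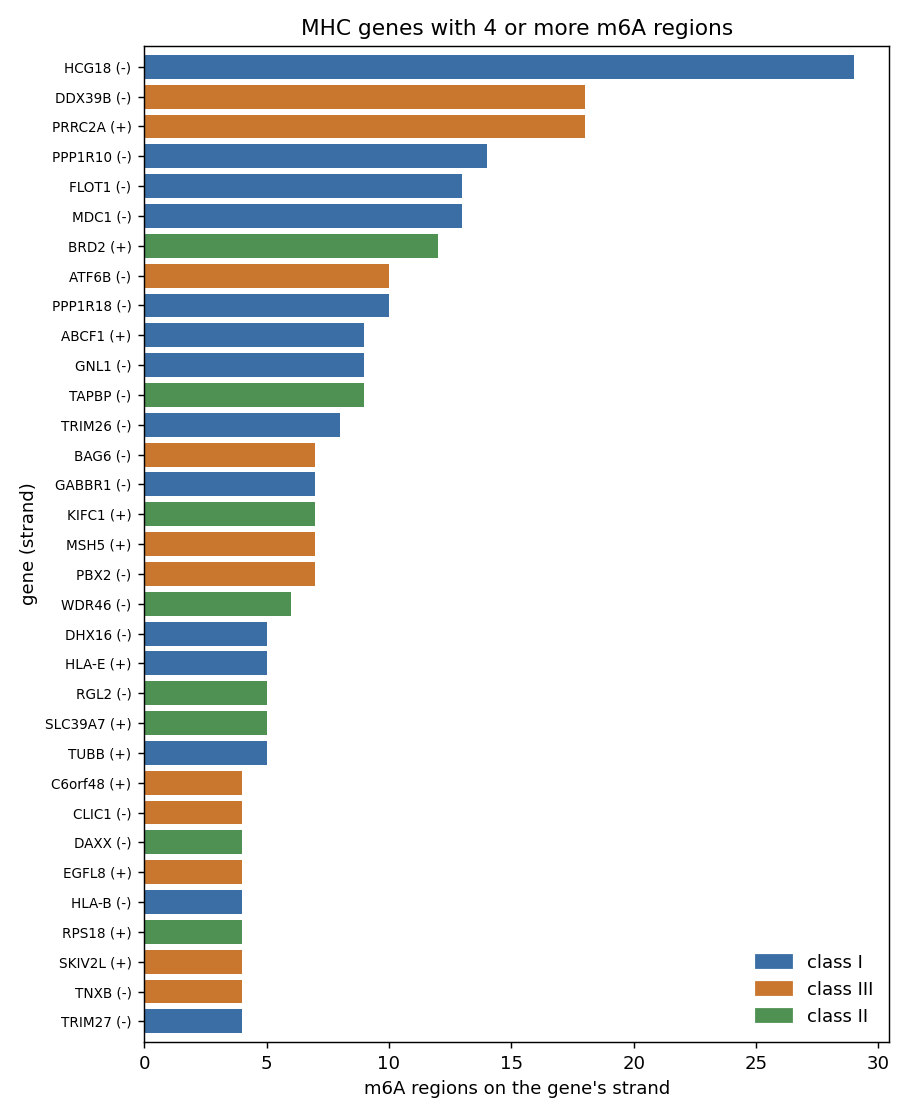
Number of m6A regions on the gene's strand (horizontal axis) for the 33 mapped genes with at least 4, coloured by part of the MHC and with the strand in brackets. HCG18 leads with 29, followed by DDX39B and PRRC2A with 18 each, and HLA-E and HLA-B stand at 5 and 4.

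Classical class I genes held regions along their short length. HLA-B had 4 on the minus strand, from 31321685 to 31321731 (47 nt), from 31323138 to 31323190 (53 nt), from 31324102 to 31324150 (49 nt) and from 31324547 to 31324580 (34 nt). HLA-C, which lies next to it on the same strand, had 2, from 31236813 to 31236862 (50 nt) and from 31239441 to 31239523 (83 nt). HLA-B stood at 1.21 and HLA-C at 0.598 regions per kb of gene, against 0.230 over all 89 listed genes. Per kb of exon HLA-B stood at 1.31 and HLA-C at 0.798, against 0.663. These genes are highly similar to one another and vary between people, so reads may have been placed at a relative or lost, and their counts are uncertain.

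Of the nonclassical class I and MIC genes, 4 of 5 held regions. HLA-E, the ligand of the NKG2A receptor of natural killer cells, led with 5 on the plus strand from 30458054 to 30461924, with widths of 49 to 163 nt. These 5 covered 12.9% of their 3.87 kb stretch, and 1 more region, from 30454233 to 30454334, lay upstream on the same strand. MICA, a stress-induced ligand of the NKG2D receptor, held 3, among them 1 of 283 nt from 31378439 to 31378721. Its neighbour MICB held 2 and HLA-F 2, and HLA-G, known chiefly from the placenta, held 0. The class I pseudogene HLA-H held 1 region of 48 nt.

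Among the genes that supply peptide to class I molecules, TAPBP stood apart. TAPBP, which encodes tapasin, the bridge between class I molecules and the TAP transporter, held 9 regions on the minus strand from 33267576 to 33280421, with widths of 22 to 154 nt. The transporter genes TAP1 and TAP2 held 1 each, of 48 and 80 nt. The immunoproteasome genes PSMB8 and PSMB9 held 0. The list thus had 11 regions in 3 of its 5 genes.

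The class II genes were nearly empty. Of 13 HLA class II genes, 12 held 0 regions, and HLA-DRB1, the beta chain of HLA-DR, held 1 of 49 nt from 32549333 to 32549381 on its own strand. Its sequence is shared in large part with other HLA-DRB genes, so the placement is uncertain. These 13 genes add up to 118 kb, so that they held 0.0085 regions per kb of gene. In a list without levels, the lack of a region does not separate a gene that is not transcribed from an RNA without the mark. The 68 regions of the class II part lay instead mainly in genes of other functions around them, such as BRD2, SLC39A7, RPS18, WDR46, RGL2, TAPBP, DAXX and KIFC1, which held 4 to 12 each.

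Complement and cytokine genes held few regions. The 4 complement genes C2, CFB, C4A and C4B held 0 on their strand. Within CFB 2 regions lay on the opposite strand, from 31916969 to 31917017 and from 31918255 to 31918302, in the same minus-strand cluster as the 2 regions of its neighbour NELFE. Of 8 genes of the TNF family and other class III immune genes, 6 held 0, TNF, LTA and LTB among them. NFKBIL1 and AGER, the receptor for advanced glycation end products, held 1 each. C4A and C4B are near-identical copies, and so are HSPA1A and HSPA1B, the inducible HSP70 chaperones, which held 2 and 3 regions. Reads of such copies may have been placed at the other copy or lost, so the counts of these genes are uncertain. HSPA1L, known mainly from testis, held 0. Of 7 TRIM genes, which encode ubiquitin ligases, TRIM26 held 8 and TRIM27 4, TRIM39 held 2, and TRIM10, TRIM15, TRIM31 and TRIM40 held 0.

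Genes of RNA processing and translation held the most regions of any list. They held 80 regions, in 11 of 13 genes, with a median of 4. DDX39B, an RNA helicase of splicing and mRNA export, held 18 on the minus strand from 31498063 to 31509154. PRRC2A, which has been described as a reader of m6A, held 18 on the plus strand from 31592221 to 31604453. PPP1R10, a nuclear targeting subunit of protein phosphatase 1, held 14 from 30570895 to 30584618, and ABCF1, a translation factor, held 9 (11 with its first limits) from 30539484 to 30557716. The splicing helicase DHX16 held 5, the ribosomal protein gene RPS18 4, the SKI complex helicase SKIV2L 4 and the valyl-tRNA synthetase VARS 3. NELFE, of the pausing complex NELF, and VARS2 held 2 each and MRPS18B 1, while ZNRD1 and LSM2 held 0. Counted per kb of exon, this list stood at 1.31 regions and all listed genes at 0.663. The latter value includes the nearly empty HLA class II list (0.0244) and the complement list (0). A list total depends on which genes were put in it, and the lists were chosen with earlier results of these data known.

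Genes listed under chromatin and transcription, a broad list that also takes in BAG6 and NOTCH4, held 63 regions, in 11 of 17 genes. MDC1, a scaffold of the DNA damage response, held 13 on the minus strand from 30668132 to 30680414. BRD2, a bromodomain protein that binds acetylated histones, held 12 on the plus strand from 32937538 to 32948617. ATF6B, a transcription factor of the endoplasmic reticulum, held 10, and BAG6 and the homeobox gene PBX2 held 7 each. DAXX, a chaperone of histone variant H3.3, held 4. The histone methyltransferase gene EHMT2 and the nuclear receptor gene RXRB held 3 each, PHF1 held 2, and RING1 and TCF19 held 1 each. POU5F1, the pluripotency factor, and NOTCH4 held 0, as did GTF2H4, ZBTB9, ZBTB12 and ZBTB22.

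Cytoskeleton, adhesion and stress genes held 42 regions, in 10 of 11 genes. FLOT1, which encodes the membrane protein flotillin, held 13 from 30698073 to 30710178, the mitotic kinesin gene KIFC1 7 and the beta-tubulin gene TUBB 5. CLIC1 held 4, as did TNXB, the gene of tenascin-X, where 4 regions (6 with its first limits) were spread over 34.9 kb. DDR1, the collagen receptor, and the early response gene IER3 held 2 each, as did CSNK2B. VPS52 held 1 and COL11A2, a cartilage collagen, held 0.

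Several genes outside the lists also held clusters, and they were added after their regions had been seen. The long noncoding RNA HCG18 held the most regions of any gene, 29 on the minus strand from 30255166 to 30293788. They had a median width of 44 nt, with a range of 21 to 327 nt, and covered 4.72% of their stretch. PPP1R18, an actin-binding partner of protein phosphatase 1, held 10, the GTPase gene GNL1 9, and the GABA-B receptor gene GABBR1 and the meiotic repair gene MSH5 7 each. WDR46, of ribosomal RNA processing, held 6, and the zinc transporter gene SLC39A7 and RGL2 held 5 each. C6orf48, a host of small nucleolar RNAs, held 4 in 3.37 kb.

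In the 24 genes with at least 5 regions, these spread over most of the length. The stretch from the first to the last region took up 54.1 to 99.6% of the gene's RefSeq length, with a median of 89.3%. Such a stretch tends to grow with the number of regions. In the 43 genes with at least 3 regions it took up 30.7 to 99.6%, with a median of 82.6%. In DDX39B it took up 94.2% of 11.8 kb, and in HCG18 97.1% of 39.8 kb. Among the 24 genes with at least 5 regions, the share of the stretch that regions covered ran from 1.10% in GABBR1 to 22.0% in DDX39B. Its median was 4.56%. DDX39B also led in density, with 1.53 regions per kb of gene, followed by SLC39A7 with 1.40 and PBX2 with 1.28, where GABBR1 had 0.226. Per kb of exon the order was another one, with FLOT1 at 4.08, ATF6B at 2.76 and PPP1R10 at 2.69 above DDX39B at 2.57. PRRC2A held as many regions as DDX39B but covered less, 1350 nt against 2444 nt. Spacing within genes varied too: the median gap between regions was 292 nt in DDX39B, 333 nt in MDC1, 767 nt in HCG18 and 2559 nt in TRIM26.

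**Figure D5:**
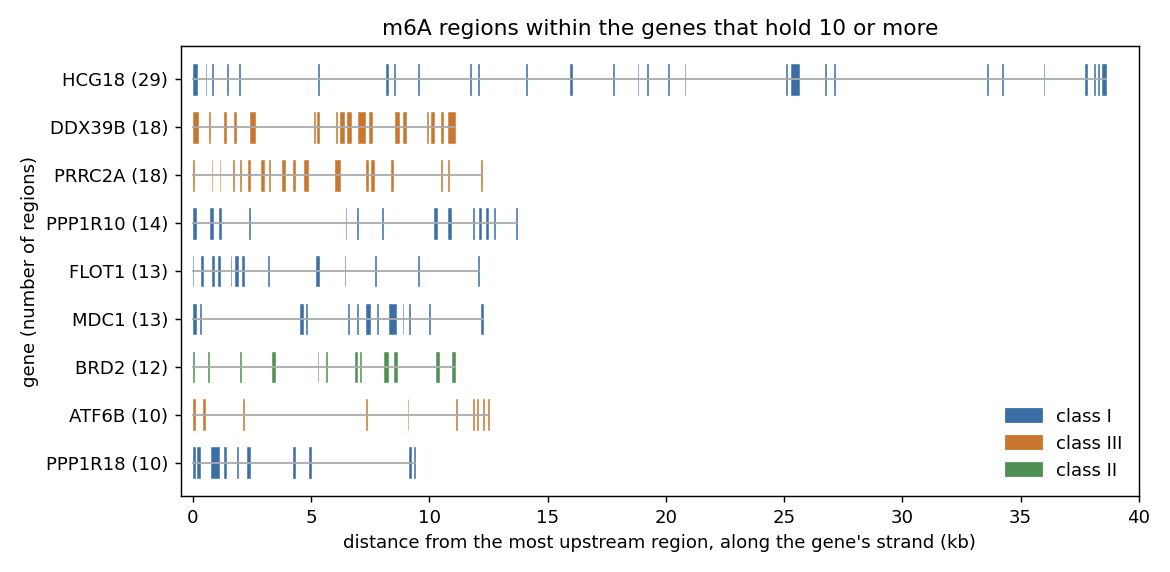
m6A regions in the 9 genes with at least 10, each drawn to scale as a block along the distance from the most upstream region in the direction of the gene's strand (kb). Blocks are widest and closest in DDX39B (22.0% of its stretch covered) and thinly spread in HCG18 (4.72%) and ATF6B (3.56%).

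Across the 89 listed genes, the number of regions followed gene size only loosely. Spearman's rho was 0.37 with exon length (Pearson's r 0.32) and 0.25 with gene length (r 0.18). Among the 50 of these genes with a region, rho was 0.39 and 0.25. These are descriptions over genes that share the same libraries, and they carry no p-value. BRD2, of 12.9 kb, held 12 regions, and EHMT2, of 17.9 kb, held 3.

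MHC regions had a slightly wider median and more wide members than the rest of the list. Widths ran from 19 to 329 nt around a median of 49 nt (quartiles 33 and 83), where other regions of the list had a median of 45 nt (quartiles 32 and 54). Regions over 100 nt made up 19.4% (74 regions, Wilson interval 15.8 to 23.7%), against 10.7% (9.46 to 12.1%) on the rest of chromosome 6 and 10.2% (9.90 to 10.5%) in the rest of the list. The share was 24.8% in class III, 17.8% in class I and 13.2% in class II. DDX39B alone had 11 regions over 100 nt among its 18, and without it the MHC share was 17.4% (13.8 to 21.6%) and that of class III 19.1%. Regions of exactly 49 nt made up 10.8% (8.03 to 14.3%), against 8.77% in the rest of the list. MHC regions also lay more often in large clusters, and the part of clustering in the width difference was not tested.

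The widest MHC region, of 329 nt, lay in DDX39B from 31501855 to 31502183. It was followed by regions of 327 nt in HCG18 from 30268166 to 30268492, of 315 nt in MDC1 from 30671805 to 30672119 and of 301 nt in PPP1R18 from 30653111 to 30653411. In all, 11 regions were 200 nt or wider, 9 of them on the minus strand. DDX39B held 3 of the 11 and HCG18 2, and MICA, PBX2, KIFC1 and GNL1 held 1 each. The 2 on the plus strand were in MICA (283 nt) and KIFC1 (239 nt).

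A small number of regions did not follow a mapped gene. Of the 26 regions outside the mapped genes of their strand, 17 belonged to a cluster that also held regions of such a gene. Among them were the 4 regions that the corrections set outside a gene. These were 2 just beyond the corrected end of ABCF1, from 30560315 to 30560448 and from 30560593 to 30560614, and 2 between TNXB and ATF6B, from 32077753 to 32077816 and from 32081322 to 32081343. The other 9 were alone. Regions of opposite strands overlapped at 2 places in the MHC. Near the facing ends of PRRC2A and BAG6, a plus-strand region from 31606852 to 31606877 lay beyond the mapped PRRC2A, within BAG6 on the opposite strand. It shared 2 nt with a minus-strand region of BAG6 from 31606876 to 31607005. In PBX2, a plus-strand region of 45 nt from 32156854 to 32156898 lay wholly inside a minus-strand region of 241 nt.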

How the data were processed

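The labels' protocols describe capture of nuclear RNA from MDA-MB-231 with an m6A antibody (2 libraries) or rabbit IgG (1), without saying whether the m6A libraries are separate cultures. Alignment used Bowtie2 and hg19, according to the submitters' processing notes. For the peak caller, its thresholds and the use of IgG the sources used here give nothing. The deposited score is 1 for every region and was not used, and the other deposited values are start and end positions, printed here counted from 1. Read depth is unknown.

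Members have a midpoint in chr6:28477797-33448354, with parts divided at 31.4 and 32.2 Mb. The members and lists were chosen with earlier results of these data known. Genes with 3 or more regions and listed genes are named, except that results for some genes are not reported here. The naming rule written for this work allowed gene names only from an annotation of hg19 and otherwise positions alone. It was departed from, because the genes holding the largest clusters were to be described: names come from a map of gene limits written from general knowledge, with 26 genes added after the regions were seen and 7 limits corrected after comparison with GENCODE release 29 and RefSeq (GRCh38) by strand, length and distance. No coordinate was converted between builds. The cluster functions were tested on simulated data. Intervals are 95%. Versions were Python 3.11.15, numpy 2.4.6, pandas 2.3.3, matplotlib 3.10.9, scipy 1.17.1 and statsmodels 0.14.6.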

Additional observations from a re-analysis of the deposited data

How the results depend on the processing

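The number of MHC regions was 381 whether membership was by midpoint, by full inclusion or by any overlap, and 379 after regions that overlap or touch were merged. Of 21 alternatives over 10 results, 17 stayed within the 95% interval of the value given above. Among these were the highest count of another window (311 tiled, 342 at any position) and the share of regions in a mapped gene, 93.2% with the corrected gene limits and 94.2% with those first written, both alternatives added after seeing the data. For the highest count the interval says little, since a counting interval does not measure the spread of a maximum. A window free to start at any region can only match or raise it. The minus-strand share moved from 63.3% to 50% when each cluster counted once. The number of clusters moved from 70 to 220 with joining up to 1 kb and to 42 with joining up to 50 kb, by construction of the distance. The class II share moved from 17.8% to 22.6% with the boundaries 0.1 Mb lower. Planned shares of regions in annotated genes and with a DRACH motif, with their alternatives, could not be computed without an hg19 reference and were not run. No paired analysis was possible because regions carry no values of separate libraries, so no library could be left out either. Read depth and enrichment over IgG are unknown and limit every statement.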
